A study of Homo sapiens with 6 samples.

Results

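The nuclear-encoded subunit genes of oxidative phosphorylation were compared between control cells and cells depleted of IGF2BP1, which encodes an RNA-binding protein known to protect target mRNAs. Members were the protein-coding rows of the deposited gene table whose symbols follow the naming of these subunits: NDUFA, NDUFB, NDUFC, NDUFS or NDUFV with a number, SDHA to SDHD, UQCR, CYC1, COX4 to COX8 with a letter, and ATP5. These are 90 of 62700 rows, with 39 in complex I, 4 in complex II, 10 in complex III, 17 in complex IV and 20 in complex V. The pattern also takes ATP5IF1, an inhibitor of the ATP synthase, and the joined genes NDUFC2-KCTD14 and ATP5MF-PTCD1. NDUFA4 and its paralog NDUFA4L2 were counted with complex I by name, although the NDUFA4 protein is now placed in complex IV.

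Poly(A) RNA was sequenced from SAS, a human line derived from a squamous cell cancer. The labels give 3 libraries of a control siRNA (siC, genotype WT) and 3 of an siRNA against IGF2BP1 (siIGF2BP1, genotype IGF2BP1 knockdown). The labels give no siRNA sequence, dose or time. Nothing in the labels says that libraries of a group came from separate cultures, so the p-values measure the spread between libraries only, and that spread may be technical. In bulk RNA, fewer cells of a type and less RNA per cell cannot be told apart.

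Oxidative phosphorylation passes electrons from NADH (complex I) and succinate (complex II) through ubiquinone, complex III, cytochrome c and complex IV to oxygen. Complexes I, III and IV pump protons across the inner mitochondrial membrane, and complex V, the ATP synthase, uses that gradient to make ATP. Mitochondrial DNA encodes 13 of the subunits, and the nucleus encodes the rest. Several complex IV subunits exist as a common form and a form typical of particular tissues such as muscle, lung or testis.

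Libraries held 17918496 to 26675064 reads, and 3 reads were worth 0.115 to 0.165 CPM, the count scaled to a fixed library total. IGF2BP1 checked the labels: its reads were 185, 223 and 292 in the control libraries, against 29, 25 and 21 after knockdown (log2 fold change -3.07, SE 0.30, adjusted p = 4.56e-06, edgeR's quasi-likelihood test with Benjamini-Hochberg adjustment, as for every adjusted p given here unless another tool is named). The squamous markers KRT5, KRT14, KRT17 and SFN stood at 3584, 1979.7, 2306 and 1374 CPM in controls. Of the 8 squamous markers 4 fell, KRT5 to 477 CPM. Summed markers of fibroblasts, endothelium and leukocytes lay between 5.72 and 18.4 CPM per library in each list, with PTPRC, CD3E, COL3A1, DCN, LUM and KDR at 0 reads throughout. Others of these markers had reads in every library, among them CD14, COL1A1 and VWF (17.8, 6.31 and 4.45 CPM in controls). PDGFRB was called higher, from 0.605 to 1.73 CPM (log2 fold change 1.52, adjusted p = 0.0491), a call lost with limma-voom and without knockdown 1. All 37 genes of mitochondrial DNA in the table are listed at 0 reads, so the 13 subunits encoded there were not compared with the nuclear ones.

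Most subunit genes lay near no change, and COX4I1 and COX6A1 of complex IV stood apart from the rest. Of the 90 members 82 passed the filter on low counts. At an adjusted p of 0.05, 5 of these were called (6.10%, against 12.9% of the 14649 genes tested): COX4I1, COX6A1, NDUFB9 and ATP5MC3 fell and COX7A2L rose. Over all genes 6.66% were called lower and 6.27% higher. At an unadjusted p of 0.05 there were 12 members (14.6%, background 25.7%). Leaving out 1 library moved the count of called members to 2 without control 2 (2.44%, against 8.07% of all genes), 3 without control 3 (3.66%, against 9.38%), 3 without knockdown 3 (3.66%, against 8.54%) and 8 without knockdown 1 (9.76%, against 12.8%). With no count filter 10 of 85 members were called, 11.8% against 8.85% of all 25291 genes then tested. The members' share lay above the background there and below it in the fit reported. With the stricter count filter 5 of 76 members were called, 6.58% against 23.3% of the 8163 genes then tested.

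The members' median log2 fold change was -0.071, against 0.033 over all tested genes, and 50 of the 82 lay below 0 (background 46.7%). The middle 50% of members spanned -0.20 to 0.10, against -0.26 to 0.36 for all genes. A change of at least 0.5 on the log2 scale was seen in 5 members (6.10%, background 29.9%). The members' changes were also estimated more precisely, with a median SE of 0.145 against 0.252 over all tested genes. The part of this precision in the members' narrower spread was not tested. For 50 of the members not called, the 95% interval of the change lay within 1.5-fold either way. The sign of the members' median turned without knockdown 1 (0.037) and with no scaling factor (0.015).

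The groups did not overlap for 10 members that were lower (background 15.1%) and 5 that were higher (background 15.5%), together 18.3% of members against 30.7% of all genes. Median log2 fold changes were -0.029 in complex I (37 tested), -0.080 in complex II (4), -0.049 in complex III (10), -0.17 in complex IV (12) and -0.030 in complex V (19). Without knockdown 1 the medians were 0.050, -0.020, 0.043, -0.031 and 0.041 in complexes I to V, with the sign turned in I, III and V. Without control 2 the sign turned in complexes III (0.036) and V (0.045). With no scaling factor the medians were 0.056, 0.0031, 0.036, -0.083 and 0.055, against 0.12 for all genes, and with the stricter count filter complex I was at 0.0089. Complex IV holds 3 of the 5 calls among its 12 tested genes, where 12.9% of all tested genes were called. Complexes II and III hold 0 calls among 4 and 10 tested genes. With so few genes per complex, these counts cannot decide whether calls are more frequent in complex IV or rarer in II and III.

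**Figure D1:**
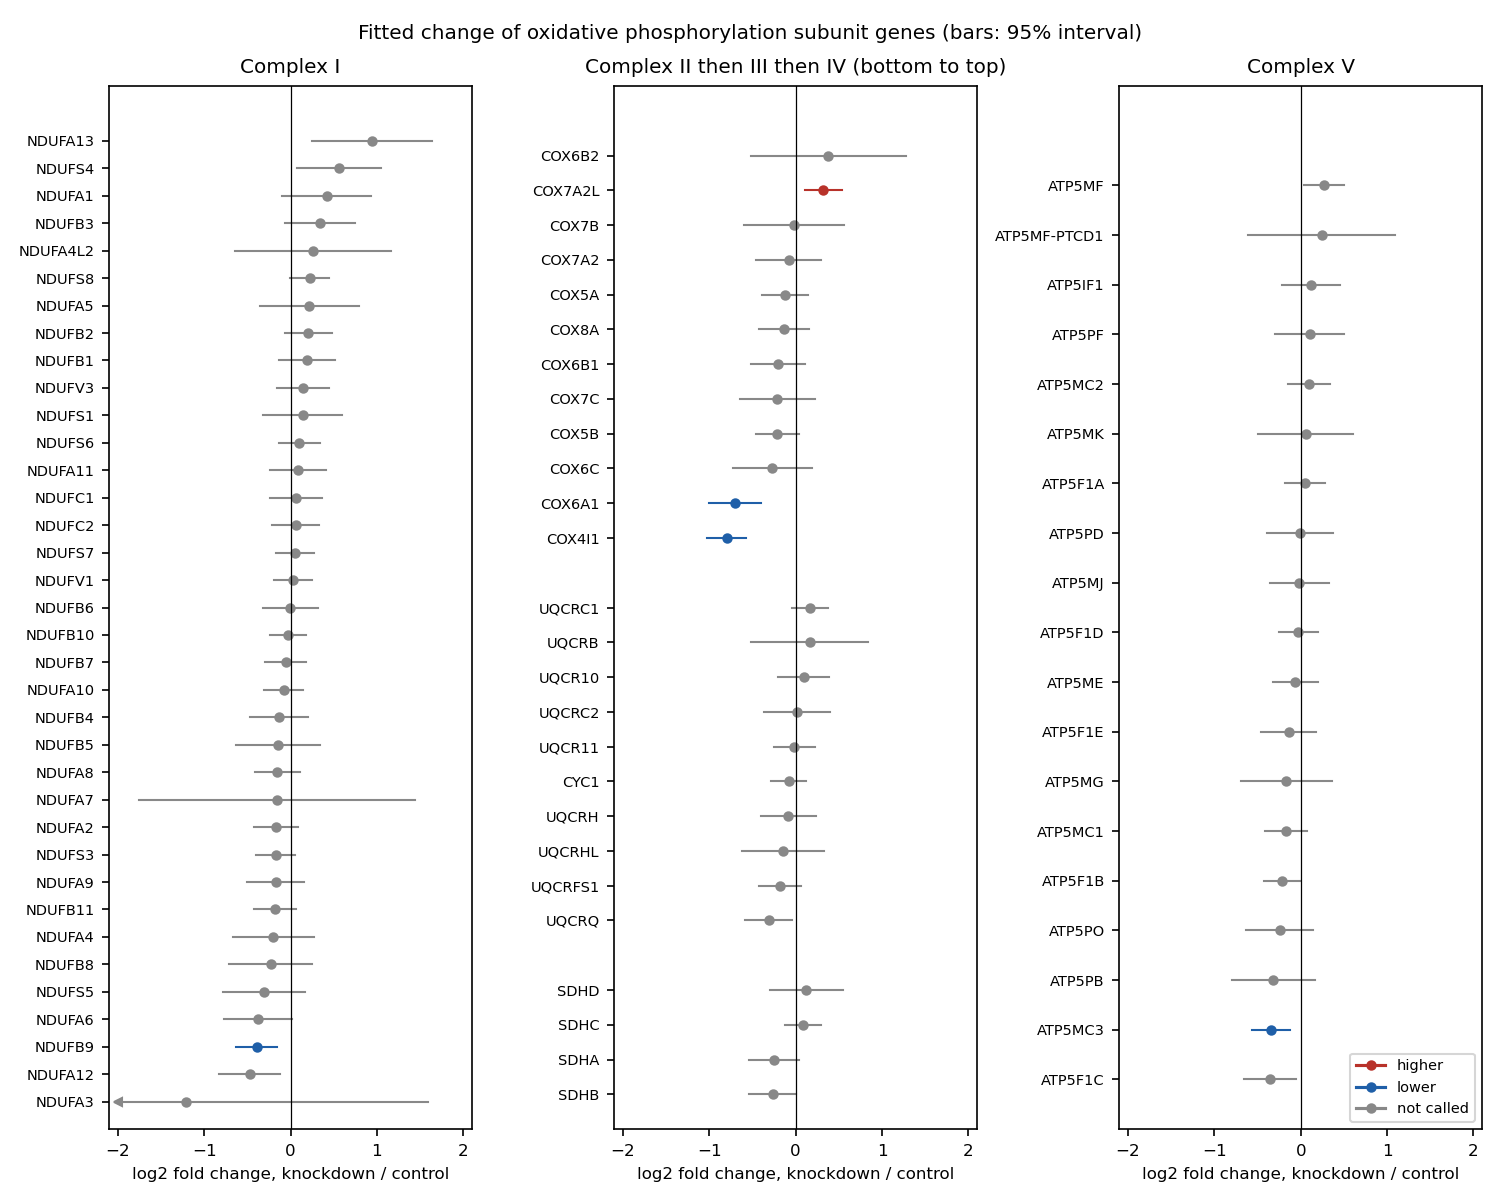
Fitted log2 fold change, knockdown over control, of tested members (x axis), 1 of them not shown, grouped by complex; bars are 95% intervals, with that of NDUFA3 running past the axis, and called members are coloured. COX4I1 (-0.80) and COX6A1 (-0.70) lie below the other complex IV genes, which run from -0.27 to 0.38.

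COX4I1 encodes subunit 4 of complex IV, at which the enzyme is known to be regulated by ATP (GRCh38 chromosome 16, 85798633 to 85807044, plus strand). It held 681, 688 and 682 CPM in the control libraries and 344, 407 and 426 CPM in knockdowns 1 to 3. The controls were nearly equal and every knockdown library was far below them. The means were 683 ± 3.79 and 392 ± 42.8 CPM (SD, n = 3 each), a log2 fold change of -0.80 (SE 0.10, 95% interval -1.02 to -0.58, adjusted p = 8.42e-05). The call held in all 15 alternatives run on this gene, with -0.72 without knockdown 1. COX4I2, the form typical of lung, had 0 reads in every library. EMC8, a neighbour on the opposite strand chosen after its values were seen, shares 0.0835% of the exon bases of COX4I1 and was not called (-0.12, adjusted p = 0.534).

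COX6A1 encodes the common form of subunit 6A (chromosome 12, 120438090 to 120440742, plus strand). Its controls spread over 264, 333 and 205 CPM, while knockdowns 1 to 3 lay together at 156, 174 and 162 CPM. The lowest control was still above the highest knockdown. Means were 267 ± 64.0 and 164 ± 9.09 CPM (SD, n = 3 each; log2 fold change -0.70, SE 0.14, adjusted p = 0.00345). This call too held in all 15 alternatives, from -0.53 without control 2 to -0.87 without control 3. The table has 7 pseudogene rows named after COX6A1. One of them, COX6A1P2, chosen after its values were seen, was also lower (17.0 and 10.8 CPM, -0.65, adjusted p = 0.0348). How reads shared by near-identical copies were counted is not given in the sources used here, so both values are uncertain to that extent. COX6A2, the form of heart and skeletal muscle, had 0 reads in every library.

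COX7A2L, also known as SCAF1, encodes a protein that joins complexes III and IV into supercomplexes (chromosome 2, 42333546 to 42425088, minus strand). Controls held 163, 179 and 184 CPM and knockdowns 203, 219 and 235 CPM. The groups did not overlap, and the gene rose by 0.32 on the log2 scale (SE 0.10, adjusted p = 0.0484). This call sat at the threshold and held in 7 of 15 alternatives. It was lost without control 1 (0.251), control 2 (0.129), control 3 (0.0846), knockdown 2 (0.0904) or knockdown 3 (0.210), with RLE scaling (0.0700), with offsets on gene length (0.128) and, with those offsets and a replicate block, 0.0576 (adjusted p in each case). Its paralog COX7A2 was at 251 ± 12.7 and 237 ± 67.5 CPM (SD, n = 3 each; -0.081, adjusted p = 0.826), and at 0.13 on the log2 scale without knockdown 1. The muscle form COX7A1 had 4 reads in control 2 and 0 elsewhere.

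Upstream sequence of these 3 genes is shown because they carry the complex IV result, beside SDHA, which has the most matches to the NRF1 motif in the set. NRF1 and the ETS factor GABP are known activators of respiratory chain genes. Sequences are RefSeq's on GRCh38.p14, the 250 bases before each start site, 5′ to 3′ on the gene's strand, with motif matches in capitals. They lie at chr16:85799445-85799694 (plus), chr12:120437863-120438112 (plus), chr2:42361218-42361467 (minus) and chr5:218070-218319 (plus). RefSeq's start sites differ from GENCODE's outer gene bounds, from which the gene coordinates in this text come: the windows of COX4I1 and COX7A2L lie wholly inside those bounds, and those of COX6A1 and SDHA reach into them by 23 and 79 bases.
COX4I1: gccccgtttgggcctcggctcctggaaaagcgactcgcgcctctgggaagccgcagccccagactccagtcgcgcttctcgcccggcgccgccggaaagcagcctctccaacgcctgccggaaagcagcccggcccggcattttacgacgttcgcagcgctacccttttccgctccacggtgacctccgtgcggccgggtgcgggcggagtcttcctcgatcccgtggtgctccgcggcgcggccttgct
COX6A1: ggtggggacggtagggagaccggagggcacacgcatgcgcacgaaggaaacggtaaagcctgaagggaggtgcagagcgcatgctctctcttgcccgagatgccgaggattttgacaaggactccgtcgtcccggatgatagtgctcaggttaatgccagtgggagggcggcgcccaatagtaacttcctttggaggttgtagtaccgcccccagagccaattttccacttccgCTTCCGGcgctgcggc
COX7A2L: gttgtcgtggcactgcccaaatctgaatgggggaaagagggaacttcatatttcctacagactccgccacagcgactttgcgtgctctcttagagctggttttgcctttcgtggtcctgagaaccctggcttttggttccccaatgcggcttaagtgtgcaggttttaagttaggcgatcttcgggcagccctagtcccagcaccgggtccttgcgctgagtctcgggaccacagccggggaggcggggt
SDHA: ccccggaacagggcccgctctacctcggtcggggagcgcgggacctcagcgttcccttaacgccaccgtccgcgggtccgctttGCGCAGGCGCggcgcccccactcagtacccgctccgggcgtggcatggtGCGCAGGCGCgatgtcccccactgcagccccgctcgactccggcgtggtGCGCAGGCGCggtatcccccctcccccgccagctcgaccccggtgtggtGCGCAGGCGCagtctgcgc

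The motifs, searched on both strands, were those of NRF1 (GCGC, any base, TGCGC), of ETS factors (CCGGAAG) and of YY1 (AAGATGGCG). None of the 4 windows holds matches to more than 1 of these motifs, so no matches of different motifs overlap in them. COX4I1 and COX7A2L hold none of these letters in the window, COX6A1 holds 1 ETS match, and SDHA holds 4 NRF1 matches, all of these on the opposite strand. Of the 65 tested members with a promoter entry, 14 (21.5%) hold the NRF1 motif, 17 (26.2%) the ETS motif and 1 (1.54%) the YY1 motif. Among all 9516 tested protein-coding genes with an entry the shares were 10.7%, 16.0% and 1.04%. SDHA itself, the flavoprotein of complex II, was at 52.1, 51.8 and 42.4 CPM in controls and 47.7, 36.1 and 39.4 CPM in knockdowns and was not called (-0.25, adjusted p = 0.281).

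NDUFB9 encodes an accessory subunit in the membrane arm of complex I (chromosome 8, 124539101 to 124580648, plus strand). Controls held 1099, 1297 and 1034 CPM and knockdowns 781, 937 and 895 CPM, each knockdown below each control. NDUFB9 changed by -0.39 on the log2 scale (SE 0.11, 95% interval -0.63 to -0.16, adjusted p = 0.0283). The call was lost without control 2 (0.169), without knockdown 3 (0.0708) and with no scaling factor (0.0824). TATDN1 and MTSS1 on the opposite strand share 21.0% of its exon bases, and the strand setting of the counting is not given in the sources used here.

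ATP5MC3 is one of the genes for the same mature c subunit, which forms the rotating ring of the ATP synthase (chromosome 2, 175176258 to 175184607, minus strand). Controls held 635, 612 and 643 CPM and knockdowns 440.2, 499 and 551 CPM, without overlap. ATP5MC3 changed by -0.34 on the log2 scale (SE 0.10, adjusted p = 0.0405). The call was lost without control 1 (0.0770), control 2 (0.0816), control 3 (0.113) or knockdown 1 (0.0687), and with no scaling factor (0.0942). Neither of the other c subunit genes was called. ATP5MC1 was at 247 ± 2.52 and 221 ± 34.7 CPM (SD, n = 3 each; -0.17, adjusted p = 0.411), and at -0.046 without knockdown 1. ATP5MC2 was at 171 ± 8.90 and 183 ± 28.1 CPM (SD, n = 3 each; 0.098, adjusted p = 0.660), and at -0.0098 on the log2 scale without knockdown 3.

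**Figure D2:**
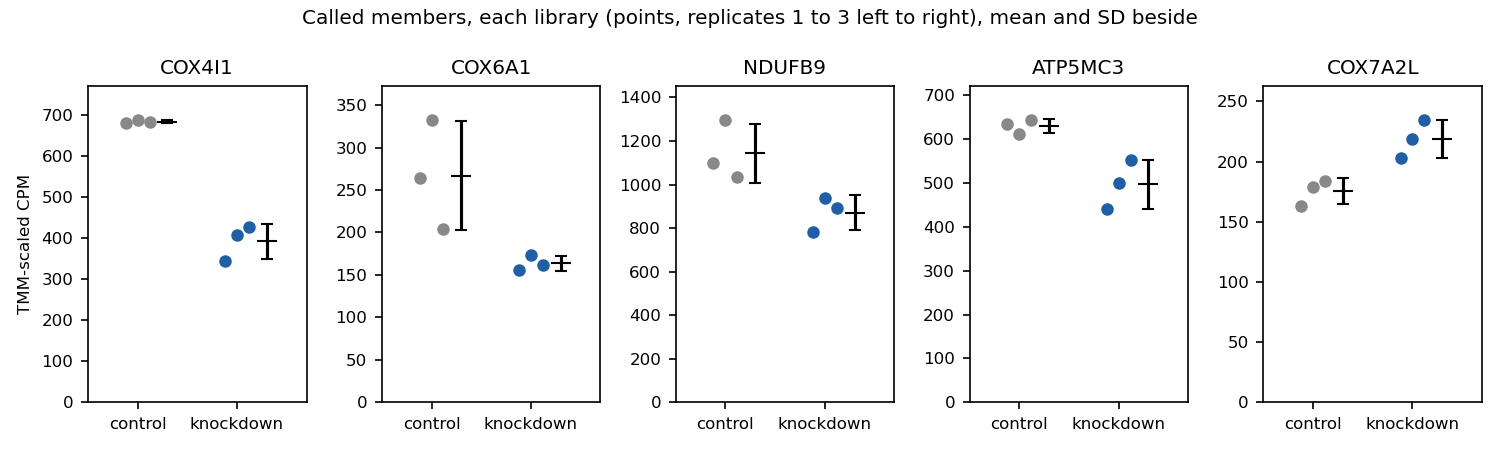
TMM-scaled CPM of the 5 called members in each library (y axis from 0; points are replicates 1 to 3 from left to right, with the mean and SD beside them). The COX4I1 controls lie within 681 to 688 CPM and its knockdowns at 426 CPM or less.

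Complex I has a conserved core, which carries the electrons, and many accessory subunits. Of the 6 core genes tested 0 were called by edgeR, DESeq2 or limma-voom, with 0, 0 and 1 at an unadjusted p of 0.05, and their median was 0.042. NDUFS8, an iron-sulphur subunit, held 479, 413 and 498 CPM in controls and 502, 553 and 563 CPM in knockdowns, higher without overlap but not called (0.22, adjusted p = 0.200). NDUFS3, chosen after its values were seen, was lower without overlap and not called (-0.17, adjusted p = 0.354).

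Among accessory subunits, NDUFA12 held 25.6, 32.6 and 35.8 CPM in controls and 18.7, 22.8 and 26.1 CPM in knockdowns. The groups overlap and it was not called by edgeR (-0.47, adjusted p = 0.0737), while DESeq2 called it lower (-0.49, adjusted p = 0.0410). NDUFA6 was at 13.4, 16.0 and 12.2 CPM in controls and 9.73, 10.7 and 11.5 CPM in knockdowns, lower without overlap and not called (-0.38, adjusted p = 0.210). NDUFS4, a subunit often mutated in complex I deficiency, was at 11.7, 15.8 and 15.7 CPM in controls and 13.3, 23.8 and 26.7 CPM in knockdowns (0.56, adjusted p = 0.125). Knockdown 1 lay inside the control range and the other knockdowns above it, and without knockdown 1 NDUFS4 was called (0.81, adjusted p = 0.00903).

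NDUFA13, also known as GRIM19, had the highest fold change of complex I and few reads, 54, 43 and 39 in controls against 77, 88 and 76 after knockdown. In CPM the groups did not overlap, and the gene was not called (0.94, SE 0.33, adjusted p = 0.0710). Genes on its own strand share 21.0% of its exon bases. NDUFA3 had the lowest value (-1.21, SE 1.13, adjusted p = 0.586), from 81, 12 and 185 reads in controls against 11, 85 and 13 after knockdown, which differ many-fold within each group. Leaving out 1 library gave -2.79 to -0.33, the ends without knockdown 2 and without control 3.

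NDUFA4 was at 177 ± 29.4 and 154 ± 45.5 CPM (SD, n = 3 each; -0.20, adjusted p = 0.615), and at 0.020 on the log2 scale without knockdown 1. NDUFA4L2, known to be induced by low oxygen, had 22 to 44 reads a library (0.26, adjusted p = 0.759).

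Complex II, succinate dehydrogenase, also belongs to the tricarboxylic acid cycle and is encoded entirely in the nucleus. Of its 4 genes 0 were called by edgeR, DESeq2 or limma-voom, and 0 had an unadjusted p below 0.05 in any of these. SDHB, the iron-sulphur subunit, held 102, 126 and 115 CPM in controls and 76.7, 99.4 and 108 CPM in knockdowns (-0.27, adjusted p = 0.211). SDHC and SDHD anchor the complex in the membrane. SDHC, chosen after its values were seen, held 155, 160.2 and 161 CPM in controls and 165, 162 and 178 CPM in knockdowns, without overlap and not called (0.089, adjusted p = 0.629). SDHD was at 0.12 (adjusted p = 0.762) and at -0.049 without control 1.

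In complex III, which moves electrons from ubiquinol to cytochrome c, 0 of 10 genes were called by edgeR, DESeq2 or limma-voom, with 1 at an unadjusted p of 0.05 in each. UQCRQ, a small accessory subunit, held 347, 355 and 342 CPM in controls and 215, 306 and 320.4 CPM in knockdowns. The controls were tight, each knockdown was lower and knockdown 1 was the lowest (-0.31, adjusted p = 0.135). UQCRC1, a core protein, held 840.4, 795 and 878 CPM in controls and 963, 887 and 975 CPM in knockdowns, higher without overlap and not called (0.17, adjusted p = 0.306).

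Of the other complex IV pairs, COX6B1 was at 274 ± 5.11 and 237 ± 58.8 CPM (-0.21), COX7B at 67.0 ± 11.1 and 66.0 ± 24.9 CPM (-0.018) and COX8A at 227 ± 46.5 and 207 ± 21.6 CPM (-0.13; SD, n = 3 each). None was called by edgeR, DESeq2 or limma-voom (edgeR adjusted p = 0.418, 0.978 and 0.610). Without knockdown 1 COX6B1 was at -0.021 and COX7B at 0.24. COX8A ran from -0.30 without control 3 to -0.019 without control 2. COX6B2, typical of testis, had 19 to 41 reads a library (0.38, adjusted p = 0.636). COX7B2 and COX8C had 0 reads, which allows up to 0.165 CPM in the shallowest library.

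In complex V, ATP5F1B encodes the catalytic beta subunit and had the most reads of any member. Controls held 1752, 1738 and 1741 CPM and knockdowns 1502, 1390.1 and 1608 CPM. Each knockdown was below each control, and the gene was not called (-0.22, SE 0.098, adjusted p = 0.170). ATP5F1C, the gamma subunit of the rotating stalk, held 65.2, 82.0 and 73.1 CPM in controls and 45.1, 64.5 and 62.9 CPM in knockdowns, again lower without overlap (-0.35, adjusted p = 0.122). ATP5MF, a small membrane subunit, held 244, 287 and 231 CPM in controls and 284, 327 and 308 CPM in knockdowns (0.27, adjusted p = 0.119). Medians were -0.14 over the 5 F1 genes, -0.12 over the 4 peripheral stalk genes and -0.014 over the 5 small membrane subunits.

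The 8 members not tested were COX4I2, COX6A2, COX7B2, COX8C and NDUFC2-KCTD14, all at 0 reads, and COX7A1, ATP5MGL and NDUFV2. ATP5MGL had 1 read in knockdown 1 and 2 in knockdown 3. NDUFV2, an iron-sulphur core subunit of complex I, held 0, 4 and 15 reads in controls and 6, 4 and 5 in knockdowns, fewer than any other core gene. A same-strand transcript shares 28.4% of its exon bases and a pseudogene row named after it holds 183 reads over all libraries. The part of either in this low count was not tested.

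Levels of different genes were compared per length, as control CPM per kilobase of the median basic coding transcript in GENCODE release 29. On this scale the highest member was NDUFB9 in complex I (1524), SDHC in complex II (345), CYC1 in complex III (882), COX4I1 in complex IV (861) and ATP5F1B in complex V (948 CPM per kilobase). COX4I1 was followed in complex IV by COX5B at 823 CPM per kilobase. In knockdown libraries COX4I1 was at 494 and COX5B at 709.8 CPM per kilobase. This order depends on the length used. The deposited gene length was 16591 bases for NDUFB9 and 4816 for COX4I1, against 750 and 794 bases for the median transcript. Per deposited length neither gene is the highest of its complex, and COX5B lies above COX4I1 in controls too.

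Knockdown 1, the shallowest library, was the library in which members were lowest. It was the lowest of the 6 libraries for 48 of the 82 tested members (58.5%, against 14.7% of all tested genes). Relative to the control mean in log2(CPM + 1), the median member stood at -0.28 in knockdown 1, 0.0020 in knockdown 2 and 0.056 in knockdown 3, and the median of all genes at 0.015, 0.036 and 0.013. Complex IV was the furthest down in knockdown 1 (-0.67), followed by complex V (-0.47), complex III (-0.34), complex I (-0.17) and complex II (-0.094). Summed CPM of complex IV was 3313, 3748 and 3294 in controls and 2262, 3053 and 3136 in knockdowns, with knockdown 1 far below the other libraries.

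**Figure D3:**
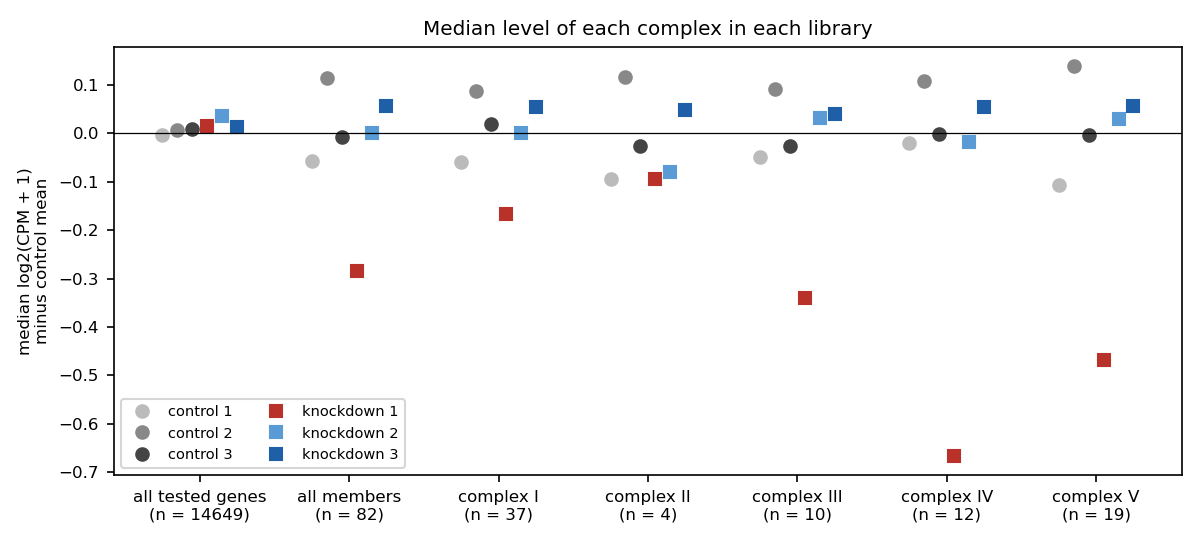
Median over tested genes of log2(CPM + 1) minus the control mean (y axis) for all tested genes, all members and each complex, 1 point per library (circles controls, squares knockdowns). Knockdown 1 lies at -0.28 for all members and -0.67 for complex IV, while knockdowns 2 and 3 stay between -0.079 and 0.058 in every complex.

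Most member transcripts are short, and other genes with transcripts up to 800 bases were low in knockdown 1 too. Among other protein-coding genes of at least 50 CPM, the knockdown 1 median was -0.38 for the 54 genes with transcripts up to 600 bases, -0.20 for the 154 genes of 600 to 800 bases, -0.062 for the 386 genes of 800 to 1200 bases and 0.054 for the 955 genes above 3000 bases. Members stood at -0.28 (19 genes), -0.47 (17 genes) and, from 800 to 1200 bases, -0.43 (9 genes), so that members of 600 to 1200 bases lay below other genes of that length. By the deposited gene length the shortest 20% of tested genes stood at 0.048 in knockdown 1. With offsets on that deposited length the members' median was -0.17, against -0.026 for all genes, COX4I1 was at -0.84 and COX6A1 at -0.86. The part of transcript length in the members' values in knockdown 1 was not tested.

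**Figure D4:**
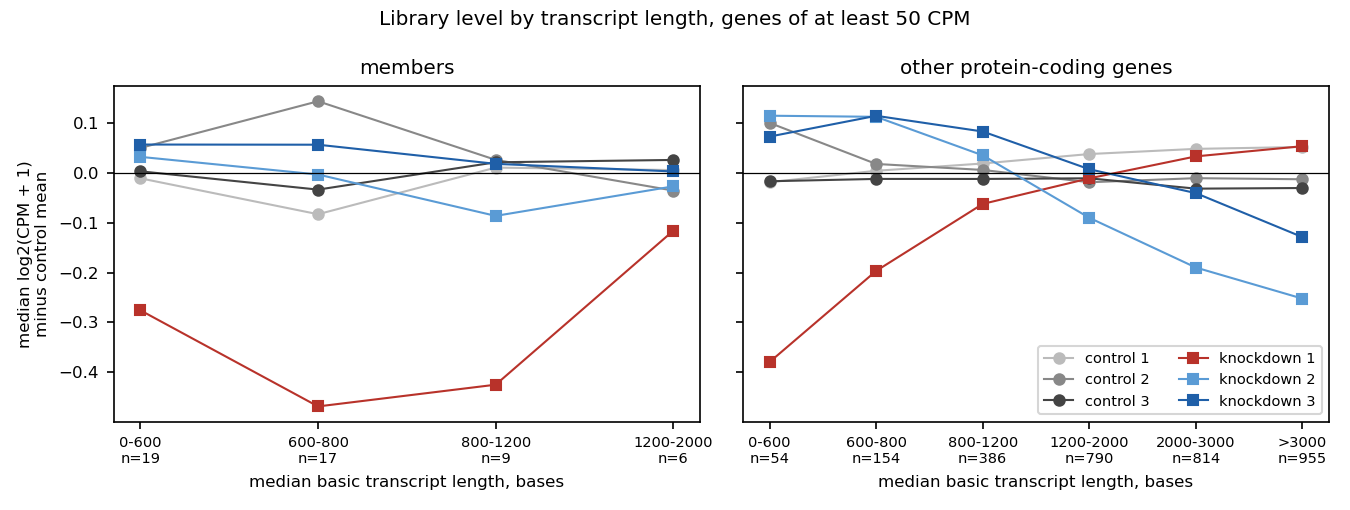
Median log2(CPM + 1) minus the control mean (y axis) by transcript length in bases (x axis), for members (left) and other protein-coding genes (right) of at least 50 CPM, 1 line per library. Knockdown 1 reaches -0.38 in the shortest other genes, and knockdown 2 -0.25 in the longest.

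Without knockdown 1, 8 of the 82 members were called (9.76%, against 12.8% of all genes) and the median was 0.037, against 0.032 for all genes. COX4I1, COX6A1 and NDUFB9 were lower. COX7A2L and NDUFS4 were higher, and so were NDUFB2 (0.35), UQCRB (0.43) and NDUFB1 (0.37), the last 3 chosen after their values were seen.

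Genes that assemble the complexes were read from lists without members, beside the 12.9% of all tested genes called. Of 19 complex I assembly factors NDUFAF2 fell (-0.56, adjusted p = 0.0226) and 0 rose, with a list median of 0.042. Of 24 complex IV assembly factors COX20, a chaperone of subunit 2, and COX11, a copper chaperone, rose (0.91 and 0.78, adjusted p = 0.0145 and 0.0300) and 0 fell, with a median of -0.030. Of 4 tested complex V factors ATPAF2 rose (0.47, adjusted p = 0.0339), a call lost without knockdown 1. Of 4 complex II and 9 complex III factors 0 were called by edgeR, DESeq2 or limma-voom. Each of these lists held 1 gene at an unadjusted p of 0.05 (background 25.7%). The shares called were 5.26% for complex I and 8.33% for complex IV factors, below the background, while 1 of 4 for complex V lay above it. With 4 to 24 genes per list, these counts cannot decide whether any list differs from the background. Outside the naming pattern, DMAC2L, known as ATP synthase factor B, rose (0.71, adjusted p = 0.0201), while cytochrome c (CYCS) and the acyl carrier subunit NDUFAB1 were at 0.021 and 0.011 and not called.

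The tricarboxylic acid cycle, which supplies NADH and succinate, held calls in both directions. Of its 14 genes 3 were called higher and 3 lower (42.9%, against 12.9% of all tested genes). Without knockdown 1 the calls were 1 higher and 3 lower. The list median was 0.0019. OGDH, of the oxoglutarate dehydrogenase complex, fell from 195 to 131 CPM (-0.58, adjusted p = 0.0105). SUCLG1, the shared subunit of succinyl-CoA ligase, fell from 118 to 90.7 CPM. SUCLA2, the ADP-forming subunit of that ligase, rose from 5.43 to 11.0 CPM (1.01, adjusted p = 0.00529). IDH3G, of isocitrate dehydrogenase, rose from 82.4 to 107 CPM and citrate synthase, CS, from 169.6 to 219 CPM.

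Calls in the other feeding pathways are set beside the 12.9% of all tested genes called. They made up 12.5% of the other electron donors to ubiquinone and 15.4% of the ubiquinone synthesis genes. At an unadjusted p of 0.05 these lists held 3 of 8 and 5 of 13 genes, against 25.7% of all tested genes. So few genes cannot decide whether either list differs from the background. Of 12 tested pyruvate entry genes 0 were called by edgeR, DESeq2 or limma-voom, with 0 at an unadjusted p of 0.05. Of 8 other electron donors to ubiquinone PRODH, proline dehydrogenase, fell from 3.11 to 0.598 CPM (-2.36, adjusted p = 0.00113). Of 13 ubiquinone synthesis genes COQ8A fell from 1.41 to 0.309 CPM (-2.22, adjusted p = 0.0285) and COQ10A rose (0.81, adjusted p = 0.0347, a call lost without knockdown 1). Of 7 tested regulators of mitochondrial biogenesis 0 were called by edgeR, DESeq2 or limma-voom, with 2 at an unadjusted p of 0.05. These were NRF1 (26.4 and 20.4 CPM, adjusted p = 0.132) and the coactivator PPARGC1B (6.08 and 3.85 CPM, adjusted p = 0.0981), both chosen after their values were seen. The coactivator PPARGC1A had 0 reads. Over all 18 pathway lists, 10 of 276 tested genes rose and 14 fell (8.70%, background 12.9%), with a median of -0.069.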

How the data were processed

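The authors deposited raw counts per gene, 1 column for each of the 6 libraries, with a gene length column in bases. Per the submitters' processing notes the tools were cutadapt 2.8, HISAT2 2.1.0, SAMtools 1.10 and featureCounts 2.0.0 on hg38, and per the labels' protocols the libraries are directional. The sources used here give no annotation release, strand setting or handling of multiply mapped reads. Members and lists were chosen with earlier results of these data known.

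Genes were filtered with filterByExpr (minimum count 10, minimum total 15), TMM scaled and fitted by edgeR 4.0.16 (R 4.3.3; robust glmQLFit, glmQLFTest, 2 groups, no covariate). Benjamini-Hochberg adjustment ran over 14649 genes at a threshold of 0.05. CPM is TMM scaled, and each SE equals the absolute log2 fold change over the root of F. The test was also run on simulated data. Named genes were IGF2BP1, called members, further members by p-value up to 15 in all, the extremes of each complex, paralog pairs, members at 0 reads, and up to 3 called genes per list and direction; exceptions are stated, and some of these genes are not reported here. Per-length levels, CYC1 and COX5B, and the levels of cell type markers were also chosen after values were seen. Coordinates and exon overlaps come from GENCODE release 29. Alternatives were a stricter count filter (5 CPM in 3 libraries) or none, RLE factors or none, a replicate block, offsets on gene length (loess, span 0.5), no joined genes, each library left out, DESeq2 1.42.0 and limma-voom (limma 3.58.1). List counts without knockdown 1 were added after seeing the data.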

Additional observations from a re-analysis of the deposited data

How the results depend on the processing

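COX4I1 and COX6A1 kept their call and direction in all 15 alternatives, between -0.87 and -0.71 and between -0.87 and -0.53. Of 186 recomputed values of 12 summary results, 156 lay within 1.5 times of the reported count or within 1 SD between libraries of the reported median (0.094 to 0.28, wide enough for a median to change sign), and 30 did not. Members called were 10 with no count filter (3 higher, 7 lower; 11.8% of members, against 8.85% of all genes); with no scaling factor 3 were higher and 2 lower (6.10% called, against 14.2%); with RLE scaling or length offsets 0 were higher. Leaving out each library gave 2 to 8 members called, 0 to 5 higher and 2 to 4 lower, and over all genes 1231 to 1948 called, 529 to 828 higher and 702 to 1141 lower; both lowest totals, 2 and 1231, came without control 2. With length offsets the complex I median was -0.16. The share of higher calls over all genes was 48.5%, against 63.2% with no scaling factor, 38.7% with length offsets and 37.9% with length offsets and the block. Counting NDUFA4 and NDUFA4L2 with complex IV, chosen after seeing the data, left the medians of complexes I and IV within the spread between replicates. For 28 single genes 368 of 416 values kept direction and call, 16 lost and 22 gained a call, and 10 turned. COX7A2 was 0.0052 and COX7B 0.066 with no scaling factor, and COX7B 0.022 with the stricter filter. Leaving out each library gave -0.049 to 0.32 for SDHD, -0.24 to 0.13 for COX7A2, -0.29 to 0.24 for COX7B, -0.37 to 0.020 for NDUFA4 and -0.0098 to 0.21 for ATP5MC2. The cause was not tested.

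The labels do not say whether same-numbered libraries were paired. Their deviations from the group means correlated at 0.179, 0.086 and -0.073, and those of differently numbered libraries at -0.235 to 0.166. With deviations centred within groups of 3, these values cannot decide whether libraries were paired. With the replicate block 12 members were called (5 higher, 7 lower; 14.6%, against 16.6% of all genes). With the replicate block and length offsets 18 were called (0 higher, 18 lower; 22.0% called lower, against 9.97% of all genes, above the background where the fit reported lies below it), and the complex I median was -0.16. Not every library correlated best with its own number. Low depth limits members near 3 reads.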

Other observations

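Genes that maintain the mitochondrion around the complexes were read beside the 12.9% of all tested genes called. The shares called were 7.79% of mitochondrial ribosomal protein genes, 12.5% of translation factors, 8.33% of cristae genes and 6.90% of protein import genes. Of 77 tested mitochondrial ribosomal protein genes, whose products translate the subunits encoded in mitochondrial DNA, 5 fell and 1 rose (background 6.66% and 6.27%), with a median log2 fold change of -0.13. DESeq2 called 9 lower and 1 higher (background 8.12% and 6.96%), and limma-voom 5 lower and 1 higher. In edgeR 16 had an unadjusted p below 0.05 (background 25.7%). MRPS30 fell from 45.1 to 27.2 CPM (-0.73, adjusted p = 0.00157), MRPL21 from 175 to 119.5 CPM (-0.55) and MRPL36 from 113 to 83.4 CPM (-0.44), while MRPS24 rose from 3.88 to 7.80 CPM. TUFM, the mitochondrial elongation factor, fell from 948 to 707 CPM (-0.42, SE 0.095, adjusted p = 0.00679) and was the 1 gene called of 8 tested translation factors.

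DNAJC11, linked to cristae organisation, fell from 80.7 to 22.7 CPM (-1.83, SE 0.14, adjusted p = 2.92e-07), the 1 call among 12 genes of that list and a larger fold change than in any of the 5 called subunit genes. Of 29 tested protein import genes GRPEL1, a cofactor of the import motor, fell (-0.58, adjusted p = 0.00542) and TIMM17B, a translocase subunit, rose (0.46, adjusted p = 0.00587). Of 26 tested genes of mitochondrial DNA and RNA maintenance edgeR called 0, DESeq2 1 and limma-voom 0, with 2 at an unadjusted p of 0.05 in edgeR (background 25.7%). Of 7 nucleotide and phosphate carriers and porins edgeR called 0, DESeq2 1 lower and limma-voom 1 higher. At an unadjusted p of 0.05 edgeR gave 4 of these 7, above the background of 25.7%. With 7 genes these counts cannot decide whether the list differs from the background.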
